A study of Homo sapiens with 112 samples.

Results

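LAPC4 cells that received 1 nM R1881 for 8 h were compared with LAPC4 cells that received vehicle (DMSO) for the same time. LAPC4 is a human prostate cancer line established from a lymph node metastasis by way of a mouse xenograft, and R1881 (methyltrienolone) is a synthetic androgen that cells do not readily break down. The comparison rests on 20 libraries, 10 per group, out of the 57 LAPC4 and 55 VCaP libraries of the series, chosen by their labels alone. Before treatment both groups spent 2 days in starvation medium, in which charcoal stripping had freed the 10% serum of steroids, and they were harvested 8 h after treatment, so the DMSO cells are hormone-starved cells and not cells in full serum. For comparison, the text uses LAPC4 cells after 22 h (7 DMSO and 10 R1881 libraries), LAPC4 cells given R1881 together with the antagonist darolutamide for 8 h (5 libraries at 500 nM and 5 at 2 µM), and the VCaP line after 8 h (10 DMSO and 10 R1881 libraries), all starved in the same way. LAPC4 is a single cell line. The study's methods name 5 biological replicates per condition, fewer than the 10 libraries of each group, and no label ties a library to a culture. Some libraries of a group may therefore share a culture, in which case the p-values, which measure the spread between libraries, are too small.

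Androgens act through a nuclear receptor that is held by chaperones in the absence of hormone. On binding hormone it moves to chromatin, joins DNA as a dimer at hormone response elements, and recruits coactivators to enhancers and promoters. In the luminal cells of the prostate this programme drives secretory genes, among them the kallikrein proteases of seminal fluid, lipid and glycosylation enzymes, and feedback genes of the receptor's own chaperone cycle. Within hours of hormone the first layer of targets responds, and later layers add growth and replication genes.

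The 20 libraries held 12188455 to 24896060 counted reads. The cells carried the markers of a luminal line: the summed level of 10 luminal markers lay between 3453 and 3681 CPM (counted reads scaled to library size) with DMSO and between 3410 and 3633 CPM with R1881. The 6 basal markers summed to between 179 and 207 CPM over both groups, among which TP63 stayed under 10 reads in every library. So did CHGA, CHGB, NCAM1 and INSM1 of 7 neuroendocrine markers, 4 of 8 fibroblast and smooth muscle markers and all 5 white blood cell markers. ERG, which the fusion of VCaP cells expresses, reached at most 1 read. Among the endothelial markers VWF was called higher with R1881 at a log2 fold change of 0.86, from at most 30 reads per library. Libraries of 1 group differed by base composition. The first principal component of the deviations from the group means held 52.7% of the variance and correlated at an absolute r of 0.977 with the slope of log2 CPM on GC content of each library. This slope averaged -0.0510 (range -0.0732 to -0.0345) with DMSO and -0.0551 (range -0.0680 to -0.0437) with R1881, and a fit with this slope as a covariate stands beside the counts. Libraries numbered 1 to 5 also differed from those numbered 6 to 10, with 2228 of 18204 genes called between these sets across both groups. The labels do not say what the numbers stand for.

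After 8 h of R1881 more genes rose than fell, nearly all by less than 2-fold, with KLK2, C1orf116, HPGD and ZBTB16 among the largest rises and ANXA1 among the largest falls. Of 18204 genes tested, 318 rose (1.75% of those tested) and 163 fell (0.895%) at an adjusted p under 0.05 (quasi-likelihood test of edgeR, Benjamini-Hochberg). The median rise was 0.25 on the log2 scale, with quartiles of 0.16 and 0.39, and the median fall was -0.20, with quartiles of -0.30 and -0.14. The median over all genes tested was -0.01. In 109 genes every R1881 library lay above every DMSO library (0.599% of genes tested), and in 23 genes every one lay below (0.126%), and all of these were among the genes called. All 318 rises and all 163 falls kept their sign when libraries 1 to 5 and libraries 6 to 10 were fitted apart, and 129 rises and 20 falls passed the threshold in both sets. These genes were chosen on a fit that included both sets, so kept signs were favoured by that choice and are no independent check. With the GC slope of each library as a covariate, all 481 stayed called, and the total went to 511 rises and 562 falls, so that the share of rises among calls depends on this choice.

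Only 12 genes passed the threshold with an absolute log2 fold change above 1. Of these, ZBTB16, KLK2, C1orf116, HPGD, ETS1 and P2RY1 were above a mean of 1 log2 CPM and are described next. The other 6 were scarce: CHRNA2 (2.99), NNMT (2.23), CCDC141 (1.78), TRGC1 (1.72) and DDC (1.58) rose and GAL (-1.01) fell, and all but CCDC141 were named after their values were seen. CHRNA2, a nicotinic acetylcholine receptor subunit, ranged from 0.154 to 0.868 CPM (median 0.462) with DMSO and from 2.80 to 5.07 CPM (median 3.98) with R1881. The 2 groups lay far apart, though DMSO libraries held as few as 3 reads of CHRNA2. Its log2 fold change was 2.99 ± 0.17 (SE, n = 10 against 10, adjusted p = 8.17e-21, edgeR), the largest among the genes called.

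**Figure D1:**
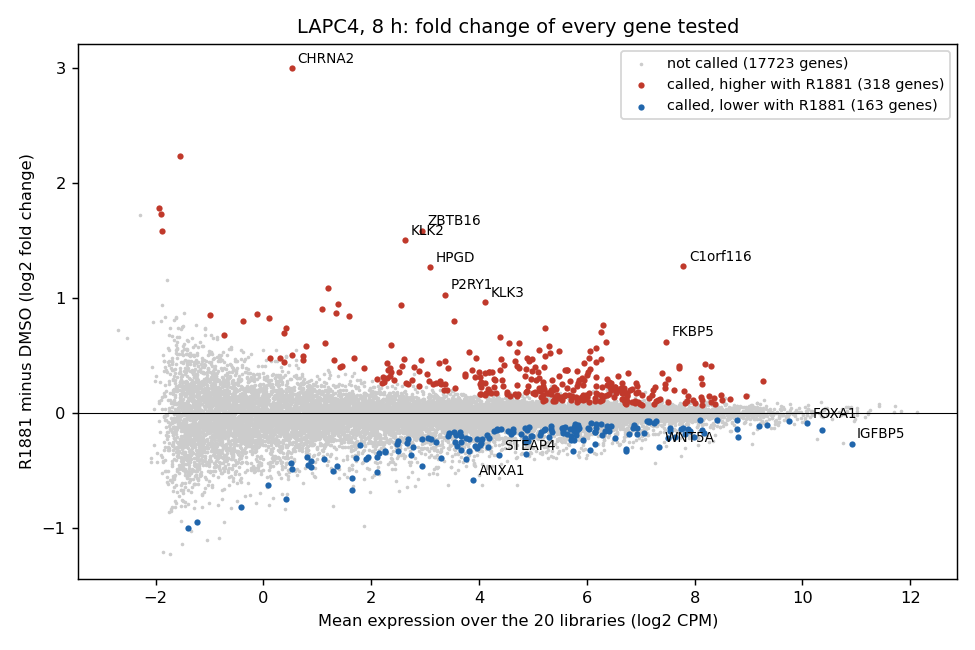
Log2 fold change of R1881 against DMSO at 8 h (vertical axis) by mean expression over the 20 libraries in log2 CPM (horizontal axis), 1 point per gene, with genes called higher in red and called lower in blue. The 318 rises reach 2.99 while the falls end at -1.01, and most called genes of either sign lie within 1 of zero.

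KLK2, KLK3 and KLK4, of the kallikrein cluster on chromosome 19, rose with R1881. KLK2 and KLK3 encode the secreted serine proteases kallikrein-related peptidase 2 and prostate-specific antigen, and KLK4 encodes a further protease of the same cluster. On GRCh38 they lie side by side, KLK3 at chr19:50854915-50860764, KLK2 at chr19:50861568-50880567 and KLK4 on the opposite strand at chr19:50906351-50911395. KLK2 ranged from 2.42 to 4.57 CPM (median 3.81) with DMSO and from 8.30 to 14.99 CPM (median 9.87) with R1881. Every R1881 library was above every DMSO library, and replicate 8 of the R1881 group stood highest. The log2 fold change was 1.499 ± 0.10 (SE, adjusted p = 4.53e-17, edgeR). KLK3 ranged from 9.45 to 15.6 CPM (median 12.7) with DMSO and from 20.1 to 28.2 CPM (median 24.2) with R1881, again without overlap. Its log2 fold change was 0.96 ± 0.07 (adjusted p = 9.75e-16). KLK4 went from 11.8 to 21.7 CPM (median 16.98) with DMSO to 21.7 to 31.3 CPM (median 26.4) with R1881, and the lowest R1881 library was only just over the highest DMSO library. The log2 fold change of KLK4 was 0.66 ± 0.12 (adjusted p = 5.58e-05). KLK15, a further gene of the cluster, had a log2 fold change of 0.83 ± 0.32 and was not called (adjusted p = 0.228). These genes are related in sequence, and how the authors' counting treated reads that match more than 1 of them is not given in the sources used here.

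The stretches of 250 bases before the annotated starts of KLK3 and KLK2 are shown because both hold a window close to the 15-base hormone response element, in which the half-site AGAACA, 3 free bases and the half-site TGTTCT follow each other. Sequences are from RefSeq promoters (GRCh38.p14), read 5′ to 3′ on the gene's strand, with the closest window in capitals.
KLK3, chr19:50854665-50854914 (+): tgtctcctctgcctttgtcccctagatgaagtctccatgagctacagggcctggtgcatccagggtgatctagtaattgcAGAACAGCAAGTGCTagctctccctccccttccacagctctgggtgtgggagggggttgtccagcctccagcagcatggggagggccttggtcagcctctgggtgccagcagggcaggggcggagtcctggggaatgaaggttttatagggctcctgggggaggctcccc
KLK2, chr19:50873189-50873438 (+): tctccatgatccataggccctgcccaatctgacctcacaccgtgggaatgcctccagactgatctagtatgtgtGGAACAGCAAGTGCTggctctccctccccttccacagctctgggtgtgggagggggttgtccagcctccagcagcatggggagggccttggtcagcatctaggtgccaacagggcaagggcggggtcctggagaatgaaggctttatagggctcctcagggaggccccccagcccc
The KLK3 window begins 170 bases before the start and has 2 mismatches in the 12 fixed bases of the element, and the KLK2 window begins 176 bases before the start and has 3. Of other large rises, C1orf116, P2RY1, MAOA, AFF3 and KCNK13 had 5 mismatches in their closest window and HPGD had 6, where the median of all genes was 5. A window with at most 3 mismatches stood in 7.92% of rising, 9.09% of falling and 5.8% of all genes tested that had a promoter in the source. The 2 windows differ at 1 of 15 bases, A1G (KLK3 first, counted from 1 at the 5′ end of the window). The KLK2 start in this RefSeq table lies inside the KLK2 gene span given above.

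Next to the kallikreins, the largest rises comprised transcription factors, an enzyme of prostaglandin breakdown and signalling proteins. ZBTB16 (chr11:114059041-114256765), which encodes the zinc finger repressor PLZF, ranged from 3.38 to 5.92 CPM (median 4.18) with DMSO and from 10.8 to 16.4 CPM with R1881. The log2 fold change was 1.58 ± 0.12 (adjusted p = 6.12e-15, edgeR), and the groups did not overlap. C1orf116 (chr1:207018522-207032756), the best-measured of the large rises, lay between 134.5 and 149 CPM (median 145) with DMSO and between 319 and 356 CPM (median 348) with R1881. Both groups were tight, and its log2 fold change of 1.28 ± 0.02 carried the smallest adjusted p of those named (2.88e-44). HPGD (chr4:174490175-174523154), which encodes the dehydrogenase that inactivates prostaglandins, went from 4.41 to 6.69 CPM (median 5.40) to 12.1 to 14.4 CPM (median 13.3). Its log2 fold change was 1.27 ± 0.06 (adjusted p = 9.54e-25).

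ETS1, which encodes a transcription factor of the ETS family, was scarce, at 1.27 to 2.07 CPM (median 1.44) with DMSO and 2.84 to 4.19 CPM (median 3.21) with R1881. Its groups stayed apart even so, with a log2 fold change of 1.08 ± 0.11 (adjusted p = 8.68e-11, edgeR). P2RY1, a receptor for extracellular ADP, went from 6.35 to 8.29 CPM (median 7.01) to 13.5 to 15.9 CPM (median 14.6), a log2 fold change of 1.03 ± 0.05 (adjusted p = 1.02e-21). Other large rises had log2 fold changes of 0.94 for MAOA, which encodes monoamine oxidase A, 0.94 for AFF3, 0.90 for ST6GALNAC1 and 0.84 for KCNK13. MAOA and ST6GALNAC1 had medians of 1.95 and 1.47 CPM with DMSO and of 3.54 and 2.83 CPM with R1881. AFF3 went from a median of 4.19 to 8.05 CPM and KCNK13, a potassium channel subunit, from 2.18 to 3.83 CPM. In none of these rises did the 2 groups overlap, and each was called under every alternative that was fitted.

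The falls were smaller. ANXA1, which encodes the phospholipid-binding protein annexin A1, ranged from 15.9 to 20.5 CPM (median 18.0) with DMSO and from 10.1 to 13.4 CPM (median 12.3) with R1881. Every R1881 library was below every DMSO library, and the log2 fold change was -0.58 ± 0.05 (adjusted p = 1.35e-13, edgeR). SLITRK6, a neuronal transmembrane protein, went from 13.4 to 17.7 CPM (median 15.6) to 9.24 to 13.2 CPM (median 11.97), likewise without overlap, at a log2 fold change of -0.40 ± 0.06 (adjusted p = 3.04e-06). B3GNT6, a core 3 O-glycan enzyme, fell without overlap from a median of 5.05 CPM to 3.54 CPM, with a log2 fold change of -0.52 ± 0.10 (adjusted p = 0.000234). SCNN1G, the gamma subunit of the epithelial sodium channel, had a median of 3.56 CPM with DMSO and 2.43 CPM with R1881. Its groups overlapped only through replicate 2 of the R1881 group, at 3.85 CPM. The log2 fold change of SCNN1G was -0.57 ± 0.09 (adjusted p = 9.23e-06).

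KIT, the receptor of stem cell factor, ranged from 6.85 to 10.9 CPM (median 9.08) with DMSO and from 5.24 to 7.41 CPM (median 6.49) with R1881. The groups overlapped in part, and the log2 fold change was -0.46 ± 0.08 (adjusted p = 4.94e-05, edgeR). The other 5 of the 10 largest falls overlapped between groups too and had medians under 5 CPM. Among them RP11-356O9.2 reached -0.67, C1orf53 -0.51, the antisense RNA LIFR-AS1 -0.46, the neuroligin gene NLGN4X -0.40 and the antisense RNA MAGI2-AS3 -0.40. C1orf53 and MAGI2-AS3 passed the threshold in 17 of 32 alternatives each, and the strand setting of the counting, which matters for antisense RNAs, is not given in the sources used here.

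**Figure D2:**
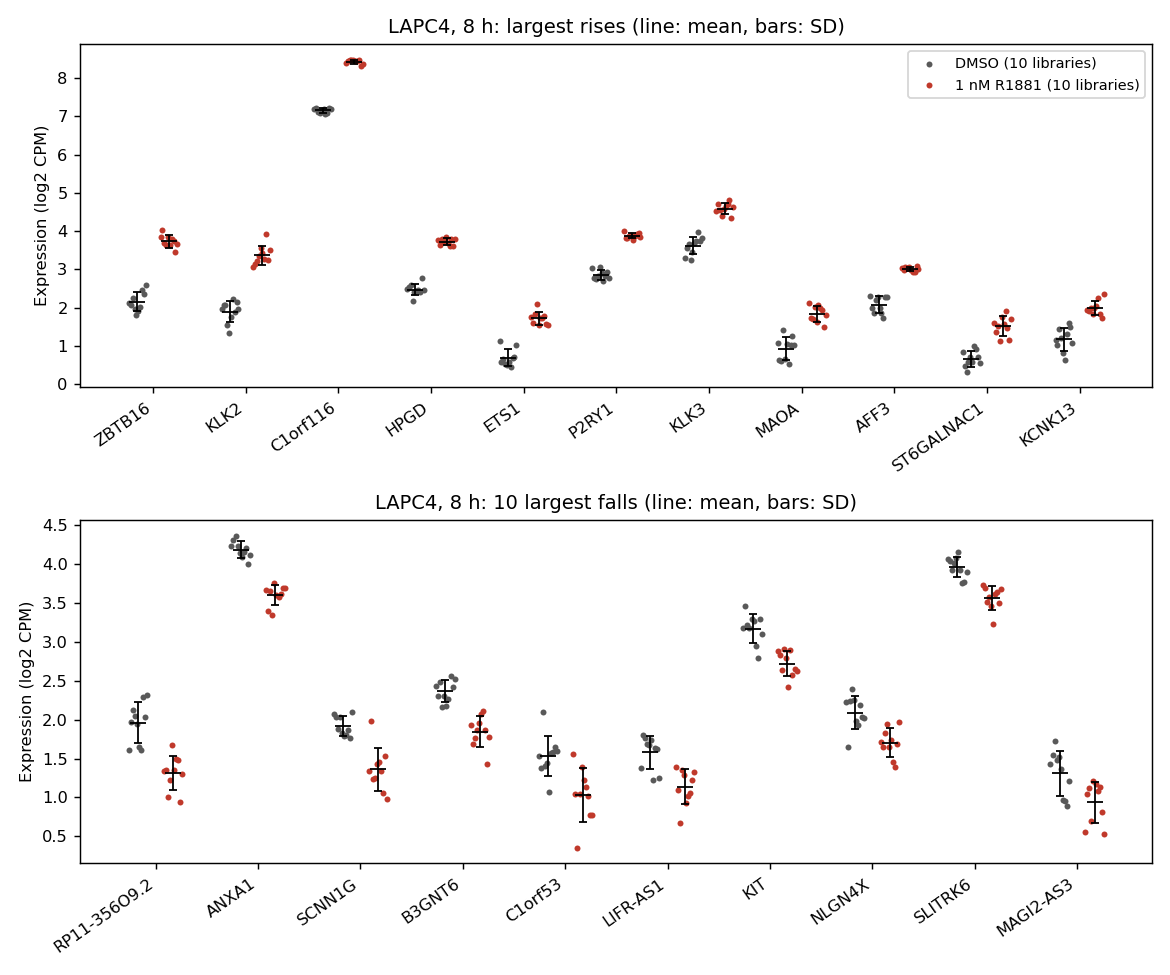
Expression in log2 CPM (vertical axis) of the largest rises and the 10 largest falls named in the text in each of the 10 DMSO (grey) and 10 R1881 libraries (red) at 8 h, with the mean (line) and SD (bars) of each group. The groups are apart for each of the rises shown, while of the falls ANXA1, B3GNT6 and SLITRK6 do not overlap.

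The list of androgen-induced genes holds genes known to rise with androgen in prostate cells. Like the other lists, it was drawn up with earlier results of these data known, so its share of calls may be raised by that choice. The lists also share some members, so a gene can count in several. In all, 67 genes of the androgen-induced list were tested. Of these, 34 rose (50.7%, against 1.75% of all genes tested), 2 fell and 31 were not called, and the median log2 fold change was 0.17 against -0.01 over all genes. Averaged over the list, the level per library lay between 4.90 and 4.97 log2 CPM with DMSO and between 5.21 and 5.32 log2 CPM with R1881. ARHGEF26, a guanine nucleotide exchange factor, ranged from 62.0 to 69.4 CPM (median 66.3) with DMSO and from 95.8 to 106 CPM (median 101) with R1881. FKBP5, a cochaperone of steroid receptors that acts in their feedback, ranged from 135 to 155 CPM (median 141) with DMSO and from 206 to 232 CPM (median 220) with R1881. Both genes rose without overlap between groups, at log2 fold changes of 0.62 ± 0.02 (adjusted p = 5.27e-27, edgeR) and 0.62 ± 0.03 (adjusted p = 9.07e-22).

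TMPRSS2, a serine protease gene whose promoter drives ERG in many prostate tumours, ranged from 109 to 126 CPM (median 114) with DMSO and from 127 to 136 CPM (median 132) with R1881. This rise was small but without overlap, at 0.18 ± 0.02 (adjusted p = 2.17e-07, edgeR). PMEPA1, an inhibitor of TGF-beta signalling, went from 40.2 to 44.9 CPM (median 43.0) to 52.2 to 57.8 CPM (median 55.9), at 0.37 ± 0.03 (adjusted p = 1.15e-15). The 2 members that fell were STEAP4, a metalloreductase, and ACPP, which encodes prostatic acid phosphatase. STEAP4 had a median of 24.0 CPM with DMSO and 18.1 CPM with R1881, a log2 fold change of -0.37 ± 0.06 (adjusted p = 2.53e-06). ACPP had medians of 31.2 and 26.7 CPM, a log2 fold change of -0.22 ± 0.04 (adjusted p = 0.000273). Both overlapped between groups. NCAPD3, a condensin subunit, stayed at medians of 67.6 CPM with DMSO and 67.4 CPM with R1881, with a log2 fold change of 0.02 ± 0.03 (adjusted p = 0.822).

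Genes known to fall with androgen moved both ways. Of 26 androgen-repressed genes tested, 6 rose and 7 fell (23.1% and 26.9%, against 1.75% and 0.895% of all genes), and the median was -0.05. Among those that fell, WNT5A, a WNT ligand, went from 168 to 194 CPM (median 180.2) to 141 to 155 CPM (median 146), at -0.30 ± 0.03 (adjusted p = 6.07e-10, edgeR). The protocadherin gene PCDH19 went from a median of 117 to 93.0 CPM, at -0.32 ± 0.04 (adjusted p = 1.06e-09), and LRRC31 from 31.1 to 26.3 CPM, at -0.25 ± 0.04 (adjusted p = 1.39e-06). KIT, given above, was the largest fall of the list. Among those that rose were UGT2B11 and UGT2B28, enzymes of a family that conjugates steroids to glucuronic acid for removal. UGT2B11 went from 85.6 to 108 CPM (median 95.4) to 115.9 to 132.5 CPM (median 122), at 0.35 ± 0.04 (adjusted p = 1.27e-09), and UGT2B28 from a median of 25.6 to 33.1 CPM, at 0.38 ± 0.04 (adjusted p = 4.74e-09). The genes of this family are close copies of each other, so how reads were split between them is uncertain. The claudin gene CLDN8 (median 16.2 to 20.4 CPM, log2 fold change 0.35) and the neurexin gene NRXN3 (median 40.6 to 46.2 CPM, log2 fold change 0.20) rose as well.

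Of 31 steroid-response genes known from glucocorticoid treatment, 7 rose and 1 fell (22.6% and 3.23%, against 1.75% and 0.895% of all genes), 23 were not called, and the median was 0.04. They included ZBTB16, FKBP5 and MAOA, given above, and RGS2, an inhibitor of G protein signalling. ZBTB16, FKBP5 and SGK1 also belong to the androgen-induced list. RGS2 ranged from 66.5 to 79.9 CPM (median 77.4) with DMSO and from 86.0 to 95.9 CPM (median 92.0) with R1881, without overlap, at 0.30 ± 0.03 (adjusted p = 1.60e-10, edgeR). SGK1, a kinase that steroid hormones induce, went from 23.9 to 27.95 CPM (median 25.7) to 29.1 to 34.98 CPM (median 32.4), at 0.32 ± 0.04 (adjusted p = 1.54e-09). The member that fell was TIPARP, a target of the aryl hydrocarbon receptor, from a median of 69.2 to 62.3 CPM. Its log2 fold change of -0.14 ± 0.04 (adjusted p = 0.041) passed the threshold in 12 of 32 alternatives.

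Of 32 lineage factors and coregulators tested, 1 rose (3.12%, against 1.75% of all genes) and 2 fell, FOXA1 and GATA3 (6.25%, against 0.895%), and the median was 0.01. FOXA1, a pioneer factor that opens chromatin for the receptor, ranged from 1094 to 1190 CPM (median 1122) with DMSO and from 1036 to 1085 CPM (median 1057) with R1881. Its groups did not overlap although the log2 fold change was only -0.09 ± 0.02 (adjusted p = 0.000608, edgeR). FOXA1 was called in 29 of 32 alternatives. It was not called with the replicate number as a block (adjusted p = 0.139, edgeR), nor in libraries 1 to 5 (0.0533) or 6 to 10 (0.303) alone. GATA3 had medians of 3.80 and 2.70 CPM, at -0.39 ± 0.11 (adjusted p = 0.0264), with overlap. It was called in 23 of 32 alternatives, with a log2 fold change of -0.22 (adjusted p = 0.901) in libraries 1 to 5 and of -0.54 (adjusted p = 0.0424) in libraries 6 to 10. MED1, a subunit of the Mediator complex, had medians of 150.5 CPM with DMSO and 150.6 CPM with R1881 and was not called (log2 fold change -0.02 ± 0.04, adjusted p = 0.922).

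Of 29 immediate early and ERK feedback genes 26 were not called, MYC rose (3.45%, against 1.75% of all genes) and the phosphatase genes DUSP4 and DUSP5 fell (6.90%, against 0.895%), and the median was -0.09. MYC, a transcription factor of growth, ranged from 10.2 to 13.6 CPM (median 11.4) with DMSO and from 13.2 to 16.3 CPM (median 14.9) with R1881. The groups overlapped slightly, and the log2 fold change was 0.34 ± 0.06 (adjusted p = 0.000209, edgeR). DUSP4 fell from a median of 293 to 268 CPM without overlap, at -0.14 ± 0.02 (adjusted p = 1.63e-07), while DUSP5 at -0.25 ± 0.07 (adjusted p = 0.0489) was called in 7 of 32 alternatives. Of 26 WNT and TGF-beta feedback genes, 3 rose (PMEPA1, TGFBR3 and LEF1) and 3 fell (WNT5A, BAMBI and ID2), 11.5% each way against 1.75% and 0.895% of all genes, with a median of -0.01. PMEPA1 is also on the androgen-induced list and WNT5A on the androgen-repressed list. ID2 was called in 17 of 32 alternatives. BAMBI, a decoy receptor of the TGF-beta family, went from 53.9 to 63.8 CPM (median 61.2) to 44.4 to 52.8 CPM (median 47.1), at -0.33 ± 0.04 (adjusted p = 5.44e-10).

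Of 37 insulin, IGF and PI3K-AKT-mTOR genes, 6 rose and 3 fell (16.2% and 8.11%, against 1.75% and 0.895% of all genes), 28 were not called, and the median was near 0 (0.0032). IGFBP5, which encodes a secreted binder of insulin-like growth factors, ranged from 2015 to 2221 CPM (median 2132) with DMSO and from 1655 to 1894 CPM (median 1748) with R1881. The groups did not overlap, and the log2 fold change was -0.27 ± 0.03 (adjusted p = 2.68e-10, edgeR). INPP4B, a phosphatase that restrains AKT signalling, rose from a median of 15.4 to 19.6 CPM at 0.35 ± 0.05 (adjusted p = 1.41e-06). IGF1R, the receptor of these growth factors, rose from a median of 17.4 to 19.2 CPM at 0.17 ± 0.04 (adjusted p = 0.00585), with overlap. MTOR (0.12) rose and the sestrin gene SESN1 (-0.16) and PIK3R3 (-0.10) fell by still less, and PIK3R3 was called in 8 of 32 alternatives. Of the 6 rises, SGK1, INPP4B and IGF1R also belong to the androgen-induced list.

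Of 33 fatty acid genes, 3 rose and 1 fell (9.09% and 3.03%, against 1.75% and 0.895% of all genes). Of the rises, ELOVL7 also belongs to the androgen-induced list. The elongase gene ELOVL7 ranged from 53.7 to 65.6 CPM (median 60.8) with DMSO and from 82.5 to 91.9 CPM (median 89.4) with R1881, at 0.56 ± 0.04 (adjusted p = 1.06e-15, edgeR). ACACA, which encodes acetyl-CoA carboxylase, went from a median of 481 to 531 CPM at 0.15 ± 0.03 (adjusted p = 0.0015), and ELOVL5 from 345 to 376 CPM at 0.11 ± 0.03 (adjusted p = 0.0217). ACSL1, an acyl-CoA synthetase, was called lower by only -0.06 ± 0.02 (adjusted p = 0.0479), in 7 of 32 alternatives. Of 26 hexosamine, sialic acid and O-glycosylation genes, 4 rose and 2 fell (15.4% and 7.69%, against the same shares of all genes). Of the rises, ST6GALNAC1 and UAP1 also belong to the androgen-induced list. ST6GALNAC1, given above, adds sialic acid to O-glycans, GCNT1 (0.29) branches them, GNE (0.19) makes sialic acid, and UAP1 (0.10) makes UDP-N-acetylglucosamine. ST3GAL1, a sialyltransferase, fell from a median of 307 to 274 CPM at -0.17 ± 0.02 (adjusted p = 5.23e-07, edgeR). GALNT3 fell by 0.13 on the log2 scale. GCNT1, GNE, UAP1 and GALNT3 were called in 23, 25, 20 and 26 of 32 alternatives, and in neither library set fitted alone. Of 17 polyamine genes only AMD1 was called (0.13; 5.88% higher), of 30 hypoxia and glycolysis genes only PFKFB2 (0.22; 3.33% higher), and of 39 MYC network and ribosome biogenesis genes MYC, NOP2 (0.12) and NOP56 (0.08), 7.69% of the list, where 1.75% of all genes were called higher. NOP2 and NOP56 were called in 19 and 16 of 32 alternatives.

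In 8 lists of 22 to 47 genes no member was called by edgeR at 8 h, which is near the background, since 1.75% of all genes were called higher and 0.895% lower. Of 22 circadian clock genes, 32 genes of ATF4 and amino acid handling and 31 of complex I and the mitochondrial genome, none reached even an unadjusted p under 0.05. Of 32 cholesterol genes 5 did, of 47 genes of endoplasmic reticulum folding and the unfolded protein response 4, of 41 G1/S and DNA replication genes 6, of 36 G2 and mitosis genes 2, and of 24 interferon genes 2. The share of all genes under that unadjusted cut is not given here, so these counts cannot be read as above or below background. DESeq2 called 1 cholesterol gene and no member of the other lists with no call. With the GC slope as a covariate edgeR called 3 cholesterol genes higher, and 1 or 2 members in all but the complex I list. The medians of these lists lay between -0.03 and 0.01. Of 11 target genes of the aryl hydrocarbon receptor, TIPARP alone was called (9.09% lower, against 0.895%).

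**Figure D3:**
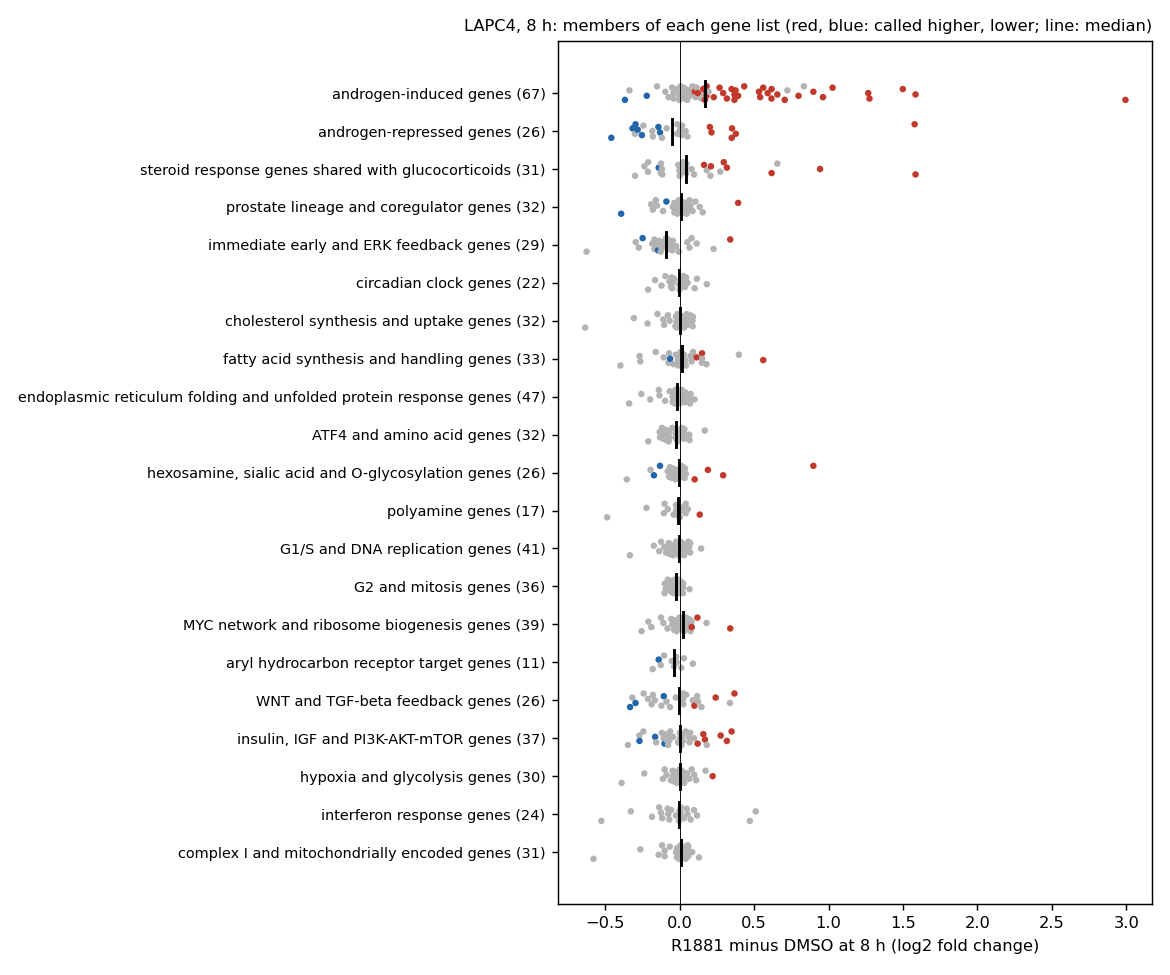
Log2 fold change of R1881 against DMSO at 8 h (horizontal axis) for each tested member of 21 gene lists (rows, with the number tested), called members in red (higher) or blue (lower), others in grey, medians as black lines. The median of the androgen-induced list (0.17) lies farthest from 0.

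Darolutamide competes with androgen for the receptor. The R1881 libraries are shared between the comparisons that follow and the one above, so the values are set side by side. KLK2 lay between 3.67 and 4.29 CPM (median 4.11) with R1881 plus 500 nM darolutamide and between 2.62 and 4.15 CPM (median 3.88) with 2 µM, against 8.30 to 14.99 CPM with R1881 alone and 2.42 to 4.57 CPM with DMSO. Both darolutamide groups lay within the DMSO range, and the log2 difference from R1881 was -1.38 ± 0.13 at 500 nM (adjusted p = 2.80e-11, edgeR) and -1.51 ± 0.13 at 2 µM (adjusted p = 5.70e-13). C1orf116 lay between 201 and 225 CPM (median 208) at 500 nM and between 147 and 152 CPM (median 148) at 2 µM. At 500 nM all 5 libraries stood between the DMSO and R1881 groups, with a log2 difference of 0.58 ± 0.03 from DMSO (adjusted p = 6.19e-23). At 2 µM the difference from DMSO was 0.07 ± 0.03 and was not called (adjusted p = 1.00). FKBP5 lay at 152 to 173 CPM (median 163) with 500 nM, overlapping the top of the DMSO group, and at 132 to 157 CPM (median 146) with 2 µM.

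ANXA1 and WNT5A, which fell with R1881, were higher when darolutamide was added. ANXA1 lay between 13.6 and 16.9 CPM (median 15.5) at 500 nM and between 17.6 and 18.7 CPM (median 18.0) at 2 µM. The log2 difference from R1881 was 0.35 ± 0.06 at 500 nM (adjusted p = 0.000265, edgeR) and 0.58 ± 0.06 at 2 µM (adjusted p = 1.32e-10). WNT5A lay between 165 and 176 CPM at 500 nM and between 168.5 and 188 CPM at 2 µM, where the difference from R1881 was 0.28 ± 0.04 (adjusted p = 7.42e-07). At 2 µM, RGS2 had a median of 82.1 CPM, between 77.4 CPM with DMSO and 92.0 CPM with R1881, and its difference from R1881 was -0.14 ± 0.04 (adjusted p = 0.0496). LRRC31 had a median of 29.3 CPM at 2 µM, and its difference from R1881 of 0.13 ± 0.05 was not called (adjusted p = 0.186). Averaged over the androgen-induced list, the libraries lay between 5.03 and 5.11 log2 CPM at 500 nM and between 4.93 and 4.97 log2 CPM at 2 µM.

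**Figure D4:**
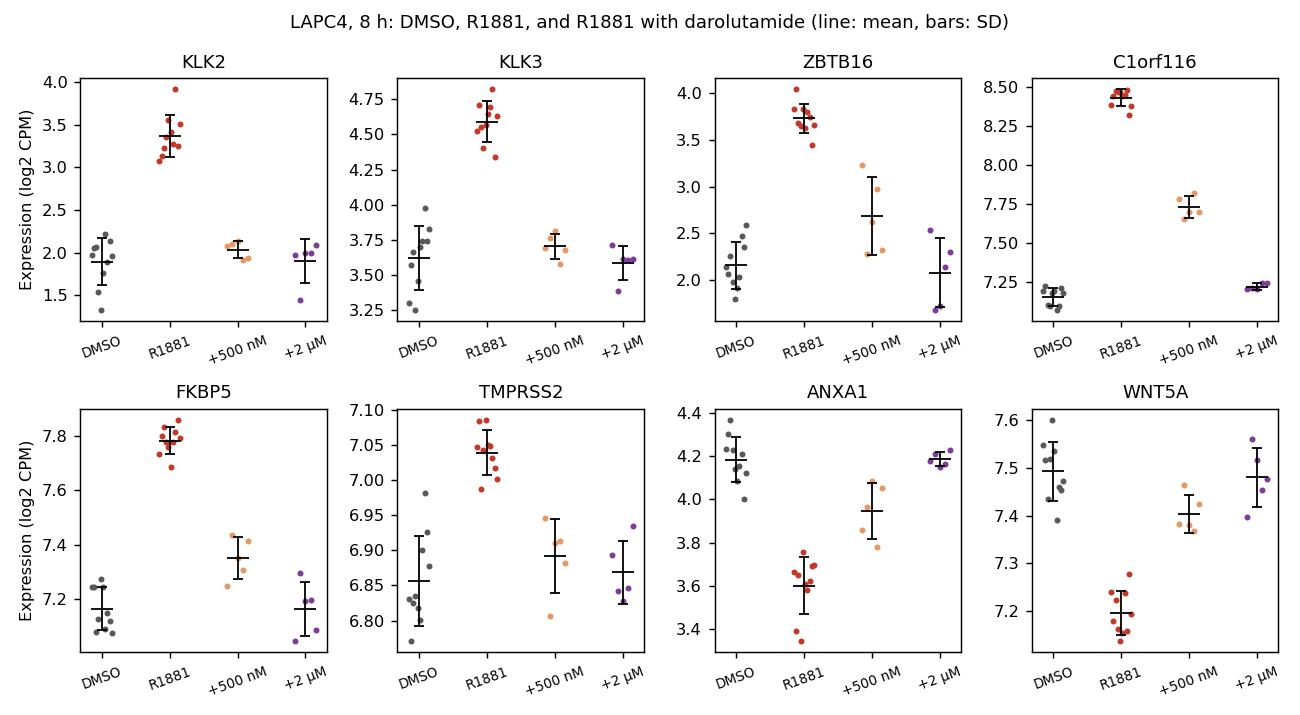
Expression in log2 CPM (vertical axes, each with its own range) of 8 genes in the LAPC4 libraries at 8 h, with DMSO (10 libraries), R1881 (10) and R1881 with 500 nM or 2 µM darolutamide (5 each), means as lines and SD as bars. At 2 µM each gene is back in or near the DMSO range. At 500 nM the mean of each of the 8 genes stands between those of DMSO and R1881.

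Most genes called at 8 h were called in the same direction at 22 h. At that time 1244 genes rose (6.83%) and 1174 fell (6.45%), in libraries that share none with the 8 h groups. The balance depends on the fit, with 991 rises and 1340 falls under upper-quartile scaling and 1643 rises and 959 falls with the replicate block. Of the 318 genes that rose at 8 h, 289 also rose at 22 h, which is 90.9% of the 8 h rises and 23.2% of the 22 h rises. Of the 163 that fell, 140 also fell, 85.9% of the 8 h falls and 11.9% of the 22 h falls, and no gene was called in opposite directions. The median change of the 8 h rises was 0.25 at 8 h and 0.38 at 22 h, and that of the 8 h falls -0.20 and -0.32. The difference between times was called for 584 of all genes (3.21%). Among the 8 h rises it was called in 115 as a larger and in 2 as a smaller effect at 22 h, and among the 8 h falls in 56 as larger and in 1 as smaller.

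At 22 h ST6GALNAC1 reached 4.93 to 6.62 CPM (median 5.69) with R1881 against 0.751 to 1.21 CPM (median 0.969) with DMSO. Its effect was larger than at 8 h by 1.62 ± 0.17 (adjusted p = 6.41e-10, edgeR). HPGD reached 32.99 to 42.4 CPM (median 38.3) with R1881, larger by 1.23 ± 0.08 (adjusted p = 9.79e-17), ZBTB16 a median of 22.3 CPM, larger by 1.15 ± 0.19 (adjusted p = 2.27e-05), and KLK4 a median of 61.1 CPM, larger by 1.06 ± 0.17 (adjusted p = 1.62e-05). RGS2 went the other way, with DMSO libraries at 94.8 to 102 CPM and R1881 libraries at 95.9 to 112.4 CPM at 22 h. Its effect was smaller than at 8 h by -0.20 ± 0.05 (adjusted p = 0.00446), and that of FLRT2, a fibronectin leucine-rich protein, by -0.28 ± 0.06 (adjusted p = 0.00109). The third was SPON1, named after its values were seen, at -0.45 at 8 h and 0.10 at 22 h (adjusted p of the difference = 0.031). None of 41 G1/S and DNA replication genes was called at 8 h, near the 1.75% and 0.895% of all genes called higher and lower then. At 22 h 29 of the 41 rose, against 6.83% of all genes. The difference between times was called in 19, against 3.21% of all genes.

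**Figure D5:**
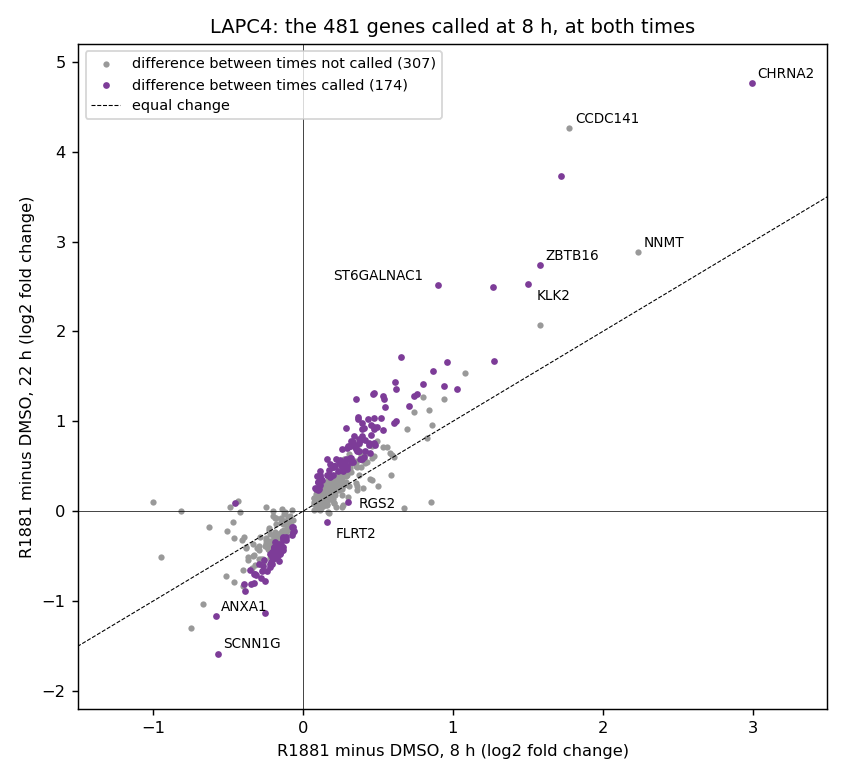
Log2 fold change of R1881 against DMSO at 8 h (horizontal axis) and 22 h (vertical axis) in LAPC4 for the 481 genes called at 8 h, with the dashed line marking equal change. Genes whose difference between times was called are purple, and most of them lie farther from 0 at 22 h than at 8 h, with RGS2 and FLRT2 nearer to 0 or past it.

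VCaP cells, which carry the TMPRSS2-ERG fusion, responded far more widely in the same 8 h. There 6327 genes rose (32.8%) and 6564 fell (34.1%) of 19266 tested, and the effect differed from that in LAPC4 cells in 58.5% of the 16578 genes tested in both lines. Of the LAPC4 rises, 295 were tested in VCaP cells, where 188 (63.7%) also rose, 85 (28.8%) fell and 22 were not called. Of the LAPC4 falls, 138 were tested, where 90 (65.2%) also fell and 33 (23.9%) rose. These shares stand beside the 32.8% and 34.1% of all genes that moved each way in VCaP cells. P2RY1 ranged from 46.4 to 59.6 CPM (median 51.4) with DMSO and from 5.60 to 7.65 CPM (median 6.72) with R1881 in VCaP cells, opposite to its rise in LAPC4 cells. The 2 effects differed by -4.04 ± 0.08 on the log2 scale (adjusted p = 2.27e-70, edgeR). STEAP4 and TIPARP, which fell in LAPC4 cells, rose in VCaP cells from medians of 6.59 and 10.9 CPM to 391.9 and 374 CPM, and the effects differed by 6.29 ± 0.08 (adjusted p = 1.50e-87) and 5.12 ± 0.07 (adjusted p = 1.12e-83).

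FKBP5 rose in both lines, but in VCaP cells from a median of 80.7 to 2967 CPM, a log2 fold change larger by 4.51 ± 0.05 than in LAPC4 cells (adjusted p = 4.99e-91, edgeR). NCAPD3, not called in LAPC4 cells, went from a median of 96.2 to 3620 CPM, and MYC, which rose in LAPC4 cells, fell from a median of 265 to 54.4 CPM. PCDH19 and CDH10, 2 cadherin genes, fell in both lines, in VCaP cells to medians of 0.266 and 0.116 CPM. The fall of CDH10 in LAPC4 cells (-0.33, adjusted p = 0.0369) was called in 16 of 32 alternatives and in neither library set fitted alone. B3GNT6 also fell in both, from 0.711 to 1.64 CPM with DMSO to at most 0.0897 CPM with R1881 in VCaP cells. KLK2 and KLK3 rose in both lines, with log2 fold changes of 1.499 and 0.96 in LAPC4 cells and 0.98 and 1.20 in VCaP cells, whereas C1orf116 and HPGD had 1.28 and 1.27 in LAPC4 cells and 0.65 and 0.56 in VCaP cells.

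Few starts of the called genes held letters of the hormone response element. In windows of 300 bases, from 250 before to 50 after the start, AGAACA was searched on both strands. It stood in 9.17% of the 240 promoters of rising genes found in the RefSeq table, in 7.44% of 121 of falling genes and in 9.01% of 10686 of all genes tested. Over all 35116 promoters of the table, genes not tested included, 14.8% held it. The 15-base element with at most 2 mismatches, which overlaps the half-site, stood in 3 of 240 rising (1.25%), 2 of 121 falling (1.65%) and 56 of 10686 genes tested (0.524%), and in 1.41% of all promoters of the table. The 5 windows are shown because they are all that the called genes hold, with capitals for the 12 fixed positions and the 3 free bases between.
KLK3, 2 mismatches, higher with R1881: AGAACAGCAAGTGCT
RNF41, 1 mismatch, higher: AGAACATAGAGTTCT
UCK2, 2 mismatches, higher: AGAACAGCCTGTTTC
SLITRK6, 2 mismatches, lower: ATAACACAATGTACT
CA10, 2 mismatches, lower: AGCACAGGGTTTTCT
RNF41, a ubiquitin ligase, and UCK2, a uridine-cytidine kinase, rose by 0.23 and 0.11 on the log2 scale, and CA10, a carbonic anhydrase-related protein, fell by 0.28. RNF41, UCK2 and CA10 were named for these windows after their values were seen. A match of letters is a description and no shown binding site, and enhancers, where much of this receptor's binding is known to lie, were outside the windows.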

How the data were processed

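RNA of LAPC4 and VCaP cells was sequenced in 57 and 55 libraries. The authors aligned reads with STAR to GRCh38, obtained gene counts by featureCounts. The deposited table gives these raw counts, not normalized, for 58684 genes. Demultiplexing by bcl2fastq 2.17 and use of DESeq2 are named in the submitters' processing notes. The kit was a stranded mRNA kit, but the strand setting of the counting and the handling of reads with several matches are not given in the sources used here. From the counts, those genes were kept that reached 10 reads in 4 or more LAPC4 libraries (18204). A quasi-likelihood model (edgeR 4.0.16, R 4.3.3, TMM scaling) was fitted to all 57 LAPC4 libraries in 8 groups, so that they share 1 estimate of the spread, and p-values were adjusted by Benjamini-Hochberg over all genes tested, with calls at an adjusted p under 0.05. The difference between times was a contrast in that fit, and the difference between lines a contrast over the libraries of both lines. CPM were TMM-scaled, log2 CPM used a prior count of 2, and each SE was taken as the size of the log2 fold change over the root of its F statistic. DESeq2 1.42.0 was an alternative, beside other scalings, filters, covariates and left-out libraries. The scripts were tested on simulated data.

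Samples were grouped by their labels. Genes were named by rule: among genes called with a mean log2 CPM above 1, the 12 largest rises and 10 largest falls, called list members (4 per direction by adjusted p where over 6 were called), the 4 largest differences of each sign between times and between lines, and genes that the study names. Some genes that the rule names are not reported here. Members and lists were chosen with earlier results of these data known. The 20 libraries held 12188455 to 24896060 counted reads, and depth limits scarce genes most.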

Additional observations from a re-analysis of the deposited data

Results flagged for a closer look

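In 9 of 148 groups of 10 libraries (the DMSO or R1881 group of a named gene), 1 library stood apart from the other 9 by Dixon's criterion, which flags about 1 group in 20 by chance. In the R1881 group these were KLK2 in replicate 8 (14.99 CPM, others 8.302 to 11.63), ETS1 in replicate 4 (4.193 CPM, others 2.843 to 3.489), SCNN1G in replicate 2 (3.846 CPM, others 1.877 to 2.802), CDH10 in replicate 2 (2.782 CPM, others 3.736 to 4.792), RGS2 in replicate 7 (86.01 CPM, others 90.69 to 95.85) and ACSL1 in replicate 6 (416.2 CPM, others 431.7 to 446.6). Replicate 2 of the R1881 group was the shallowest library, with 12188455 reads. In the DMSO group they were C1orf53 (4.197 CPM, others 2.008 to 3.027), NRXN3 (34.31 CPM, others 38.02 to 41.69) and NOP56 (92.01 CPM, others 99.74 to 108.3), each in replicate 3.

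The effect of R1881 differed between 22 h and 8 h, by the contrast of the 2 effects in edgeR, in ST6GALNAC1 (1.616 on the log2 scale), HPGD (1.23), ZBTB16 (1.154) and KLK4 (1.059), all larger at 22 h, and in RGS2 (-0.1996) and FLRT2 (-0.2767). It differed between VCaP and LAPC4 cells at 8 h in STEAP4 (6.29), CCDC141 (5.28), TIPARP (5.124) and FKBP5 (4.505), higher in VCaP cells. It was lower there in B3GNT6 (-5.873), CDH10 (-4.822), PCDH19 (-4.409) and P2RY1 (-4.042). The fitted value of B3GNT6 depends on the prior count, since the median VCaP library with R1881 held none of its reads.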

How the results depend on the processing

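All 481 genes called at 8 h kept their sign in each alternative where they had a value, but whether more genes were called higher or lower turned under some. The alternatives reuse libraries on which these genes were chosen, so the kept signs are no independent check. The count of 481 went to 304 with the replicate block (229 higher, 75 lower), to 1073 with the GC slope of each library (511 and 562), to 958 with the block and GC slope together (554 and 404), and to 1088 with the library set (numbers 1 to 5 or 6 to 10) and GC slope (623 and 465), an alternative chosen after seeing the data. It was 201 in replicates 1 to 5 alone and 243 in replicates 6 to 10 alone. Leaving out 1 library at a time gave 427 to 502 calls. The cause of these shifts was not tested. Each set fitted alone also held fewer libraries than the full groups. Same-numbered DMSO and R1881 libraries correlated in their deviations at -0.542 to 0.397, with 2 of 10 pairs over 0.1. No library correlated best with its own number. These values include the differences in GC slope, so they cannot settle whether the numbers pair the libraries. With the GC slope taken out, same-numbered libraries correlated at a mean of 0.072 (lowest -0.044). Libraries of the same set (numbers 1 to 5 or 6 to 10) then averaged 0.087 and those of different sets -0.087. The 12 genes beyond 1 on the log2 scale were 7 by DESeq2, and 11 to 14 with 1 library left out. The 584 differences between times went to 386 without the filter on low counts, to 1534 with the GC slope and to 332 at an adjusted p under 0.01. Of them 327 were positive and 257 negative, against 214 and 345 with upper-quartile scaling, 279 and 370 when only the groups compared were fitted, and 250 and 277 with the block. For VCaP minus LAPC4, 4372 differences were positive and 5327 negative, against 5263 and 4162 when only the groups compared were fitted. The 22 h and VCaP results were run under fewer alternatives than those at 8 h. Of 74 named genes, the block left 21 short of the threshold, no filter 16, DESeq2 4 of 73 and the GC slope none. Upper-quartile scaling gave 456 calls, 344 of them higher. Genes with few reads carried the largest errors.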

Other observations

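A run of zinc finger genes on chromosome 19 rose together, a pattern chosen after its values were seen. In the region chr19:51790950-52130240 (GRCh38) 8 genes were tested, all encoding zinc finger proteins, and 6 of them rose after 8 h of R1881. Of all genes tested 1.75% rose, but the region was drawn around the called genes, which raises the share within it. ZNF649 ranged from 47.2 to 61.2 CPM (median 53.0) with DMSO and from 68.8 to 75.04 CPM (median 72.4) with R1881, without overlap, at a log2 fold change of 0.44 ± 0.04 (SE, adjusted p = 1.01e-11, edgeR). ZNF613 (0.49), ZNF350 (0.47), ZNF615 (0.36), ZNF614 (0.28) and ZNF577 (0.27) rose as well, while ZNF432 (0.15, adjusted p = 0.0703) and ZNF841 (0.15, adjusted p = 0.103) did not pass the threshold. All 6 were also called higher at 22 h, with log2 fold changes from 0.54 to 0.93, and in VCaP cells, from 0.79 to 1.52. Of all genes tested, 6.83% were called higher at 22 h and 32.8% in VCaP cells. With 2 µM darolutamide all 6 were called lower than with R1881 alone, by -0.22 to -0.38. The same R1881 libraries served to choose these genes, so this direction was favoured by the choice and is no independent result. These genes are related in sequence, so reads that match several of them make the single values uncertain.

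Of 309 rises with a position, 29 (9.39%) had the start of another rise within 100 kb, against 354 of 15275 tested genes (2.32%), and the other rises had none. The 29 include the zinc finger genes and the 3 kallikrein genes above. Of 157 falls, 6 (3.82%) had another fall that near, against 167 of 15275 (1.09%). Besides the zinc finger and kallikrein genes, the pairs included STEAP1 (0.29) with STEAP2 (0.38), and C1orf116 (1.28) with PFKFB2 (0.22), whose starts lie 1610 bases apart on opposite strands.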
